A study of Mus musculus with 7 samples.

Results

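The 10 genes described here belong to opioid and endocannabinoid signalling in the mouse brain. They were taken by symbol from the deposited count table, which holds 55367 genes. They comprise the opioid peptide precursors Penk, Pdyn and Pnoc, the opioid receptors Oprm1, Oprd1, Oprk1 and Oprl1, the cannabinoid receptor Cnr1, and the endocannabinoid enzymes Mgll and Dagla. RNA-seq was made from neurons of the medial prefrontal cortex (mPFC) that project to the lateral habenula, in C57BL/6J mice labelled P90, with 4 libraries labelled CRS and 3 labelled noCRS. The labels give no other treatment, genotype or sex for either group and do not spell out CRS. The series title concerns chronic stress and depression, and the design names the contrast of CRS with noCRS. The sources used here do not describe the marking and isolation of the neurons. Whether libraries stand for separate mice is also unstated, so the p-values speak of spread among these libraries, part of which may be technical.

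Opioid peptides are cut from larger precursor proteins and act on receptors that couple to inhibitory (Gi/o) G proteins, which lower cyclic AMP, open potassium channels and close calcium channels. Endocannabinoids are lipids made on demand in the receiving neuron. They travel back across the synapse to the CB1 receptor on the incoming terminal and reduce transmitter release. In the cortex, opioid peptides and CB1 receptors are known mainly from inhibitory interneurons, with lower CB1 receptor levels in pyramidal neurons.

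The shared feature of the peptide precursors is a 4-residue opioid core that begins each peptide, and in the precursor a pair of basic residues, at which convertases cut, stands before it. Codons beginning TA, GG, GG and TT in a row, or TT in place of TA, were searched in the longest open reading frame of each GENCODE M21 transcript. Penk held 7 copies, 6 of them followed by a methionine codon and 1 by a leucine codon. Pdyn held 3 copies, all followed by a leucine codon, and Pnoc held 1 copy, which began with the TT codon. Each of the 11 copies was preceded by a pair of basic codons. An example of each form is shown 5′ to 3′, with the 4 core codons and the next codon in capitals and 6 bases on either side.
Penk, copy 1: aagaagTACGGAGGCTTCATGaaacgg
Penk, copy 6: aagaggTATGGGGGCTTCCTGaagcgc
Pdyn, copy 1: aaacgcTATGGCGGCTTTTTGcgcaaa
Pnoc, copy 1: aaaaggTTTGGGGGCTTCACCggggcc
The examples show the codons that differ between the enkephalin, dynorphin and nociceptin families: a methionine or leucine codon at the end in Penk, a leucine codon in Pdyn, and the TT start in Pnoc.

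Promoters, from 250 bases before to 50 bases after the start site (RefSeq, GRCm38.p6), were found for 6 of the 10 genes. Penk, Pnoc, Oprk1 and Dagla were not among them. Both strands were searched for 6 motifs. The cAMP response element, TGACGTCA, occurs in 1.79% of 32851 promoters of the same length. Its core TGACG, which also lies within the longer motif, occurs in 20.8%. The AP-1 site TGANTCA occurs in 7.81% of those promoters. The E-box motif CACGTG was found in 7.15% of them. The TATA box, written TATAAA here, occurs in 13.6%. The palindromic glucocorticoid response element occurs in 0.00913%. The promoters of Cnr1, Oprl1 and Mgll are printed on the strand of the gene because these genes had groups that did not overlap in expression. Capitals mark the match.
Cnr1, chr4:33924394-33924693, plus strand: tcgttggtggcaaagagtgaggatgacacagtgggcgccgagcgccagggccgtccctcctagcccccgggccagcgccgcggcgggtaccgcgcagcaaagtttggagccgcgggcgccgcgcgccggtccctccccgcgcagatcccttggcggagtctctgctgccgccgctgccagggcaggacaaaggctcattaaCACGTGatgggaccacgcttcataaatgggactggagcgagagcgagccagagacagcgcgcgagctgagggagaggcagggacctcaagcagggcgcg
Oprl1, chr2:181714766-181715065, plus strand: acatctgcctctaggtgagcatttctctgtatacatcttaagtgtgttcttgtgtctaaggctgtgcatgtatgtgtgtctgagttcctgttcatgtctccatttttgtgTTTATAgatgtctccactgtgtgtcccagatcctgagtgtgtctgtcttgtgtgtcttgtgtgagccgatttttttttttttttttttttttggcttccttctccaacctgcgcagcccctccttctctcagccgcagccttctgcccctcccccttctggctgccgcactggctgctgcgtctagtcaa
Mgll, chr6:88724162-88724461, plus strand: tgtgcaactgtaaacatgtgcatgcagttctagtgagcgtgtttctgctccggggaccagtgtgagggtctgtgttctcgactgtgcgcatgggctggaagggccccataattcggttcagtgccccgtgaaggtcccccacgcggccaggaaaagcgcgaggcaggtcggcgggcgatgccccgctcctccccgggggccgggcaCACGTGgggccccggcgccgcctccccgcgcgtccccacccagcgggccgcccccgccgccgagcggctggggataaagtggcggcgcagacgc
Cnr1 and Mgll each held CACGTG, beginning 49 and 44 bases before the start site. Oprl1 held TATAAA on the opposite strand, beginning 140 bases before the start site. Oprd1 also held CACGTG, 86 bases before its start site, and the promoters searched for Pdyn and Oprm1 held no match. Where a gene had several promoters, as all of these but Oprd1 did, only the one nearest the deposited start was searched. The start sites used for Cnr1 and Oprm1 lie 51 and 87 bases after the deposited start of the gene, and that for Pdyn lies 94 bases before it.

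Levels are CPM, read counts scaled to a common library size by TMM, with library totals of 28677703 to 39965667 counts. Differences were tested with edgeR's quasi-likelihood test over 17833 genes, with Benjamini-Hochberg adjustment and a threshold of 0.05. A count of 3 in 1 library, the limit that a count of 0 allows, corresponds to 0.0724 to 0.0990 CPM. Over the 3 noCRS libraries together it corresponds to 0.0286 CPM, which was used for lower bounds on fold. These limits cover counting error only, since amplified reads were counted without identifiers of single molecules.

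None of the 7 tested genes of the 10 passed the threshold in edgeR, at which 2.3% of all tested genes were called. By an unadjusted p below 0.05, 5 of the 7 passed (Penk, Pdyn, Pnoc, Cnr1 and Oprl1), against 13.6% of all tested genes. In 4 of these the CRS values were higher (9.67% of all tested genes) and in Oprl1 they were lower (3.91%). Pdyn and Pnoc, at 0 in all noCRS libraries, could pass the filter only through their CRS counts. They could differ only by being higher in CRS, which limits every count here that includes them. DESeq2 called 4, Penk, Pdyn, Pnoc and Cnr1, all with higher values in CRS, against 6.84% of all genes with an adjusted p in that direction and 9.14% in either. Limma-voom called 1, Pnoc, against 2.93% of all tested genes in that direction. Without noCRS replicate 3, edgeR called 1, Cnr1. Every CRS library lay above every noCRS library in 3 of the 7, Penk, Pnoc and Cnr1, a pattern seen in 10.1% of all tested genes. Every CRS library lay below every noCRS library in 2, Oprl1 and Mgll, against 6.74% of all tested genes, and 16.9% showed either pattern. The remaining 3, Oprm1, Oprd1 and Oprk1, did not pass the expression filter, Oprk1 having counts in only 2 libraries, and were not tested.

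**Figure D1:**
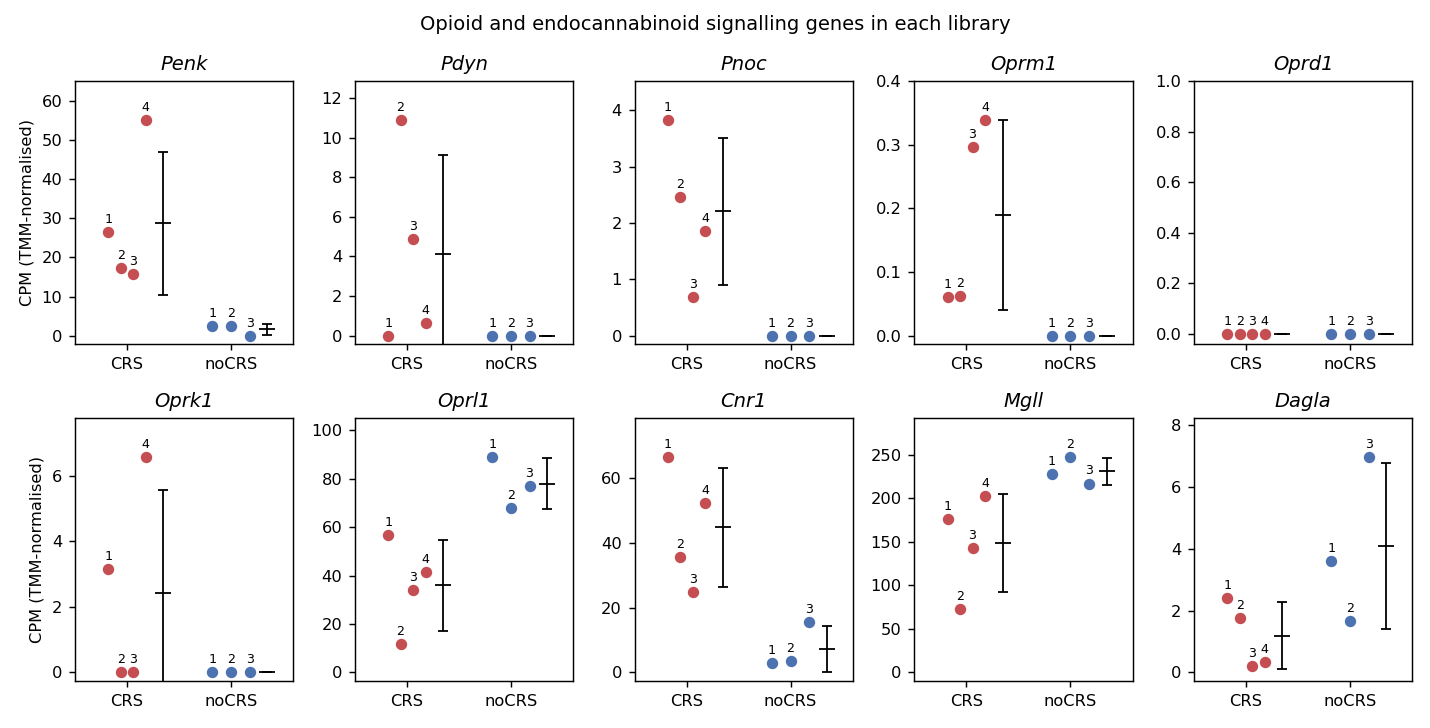
TMM-normalised CPM of the 10 genes in each CRS library (red, left) and each noCRS library (blue, right), with the replicate number above each point, the mean as a tick and the SD as a bar (cut at the axis for Pdyn and Oprk1). Penk, Pnoc and Cnr1 lie higher in all 4 CRS libraries than in all 3 noCRS libraries, Oprl1 and Mgll lie lower, and Oprd1 is at 0 throughout.

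Penk encodes proenkephalin, the precursor of the enkephalins, and lies on the minus strand at chr4:4133531-4138819. Its counts were 877, 557, 479 and 2118 in CRS libraries 1 to 4, against 105, 73 and 0 in noCRS libraries 1 to 3. These correspond to 26.5, 17.4, 15.8 and 55.2 CPM in CRS, against 2.53, 2.34 and 0 CPM in noCRS. The groups did not overlap, and CRS replicate 4 was about as high as the other CRS libraries together. The mean was 28.7 ± 18.3 CPM in CRS (SD, n = 4) and 1.63 ± 1.41 CPM in noCRS (SD, n = 3), a 17.6-fold difference. The log2 fold change was 4.14 (SE 1.33, 95% interval 1.10 to 7.17), with an adjusted p of 0.189 by edgeR's quasi-likelihood test and 0.00582 by DESeq2. Penk shares 14.26% of its exon length with A830012C17Rik on the other strand, and the library kit does not mark strand, so reads of the shared 233 bases cannot be told apart. That gene had 3.11, 2.15, 1.58 and 5.99 CPM in CRS, against 0.169, 0.0963 and 0 CPM in noCRS.

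Pdyn encodes prodynorphin, the precursor of the dynorphins that act on the kappa receptor, at chr2:129686565-129699844 on the minus strand. Counts were 0, 348, 148 and 24 in CRS, against 0 in each noCRS library. In CRS these were 0, 10.9, 4.89 and 0.625 CPM. CRS replicate 1 was at 0 like the noCRS libraries, so the groups overlapped. The CRS mean of 4.09 ± 5.01 CPM (SD, n = 4) was at least 143-fold higher than the limit for noCRS, or at least 64.3-fold without CRS replicate 2. The adjusted p was 0.203 by edgeR and 0.00387 by DESeq2.

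Pnoc encodes prepronociceptin, the precursor of nociceptin, the ligand of the Oprl1 receptor, at chr14:65400673-65425472 on the minus strand. Counts were 127, 79, 21 and 71 in CRS, against 0 in each noCRS library. In CRS these were 3.83, 2.46, 0.693 and 1.85 CPM. Every CRS library was above the limit of a 0 count, and the groups did not overlap. Of the 55367 genes in the table, 0.215% were likewise at 0 in all noCRS libraries and detected in every CRS library. The CRS mean was 2.21 ± 1.31 CPM (SD, n = 4), at least 77.4-fold higher than the noCRS limit. Of the 7 tested genes Pnoc came nearest to the threshold, with an adjusted p of 0.0625 by edgeR, 1.64e-05 by DESeq2 and 0.0478 by limma-voom. The edgeR value ranged from 0.0819 to 0.204 when each library was left out in turn.

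Summed over the 3 precursors, the level was 30.3, 30.7, 21.4 and 57.7 CPM in CRS, against 2.53, 2.34 and 0 CPM in noCRS. Penk made up most of the sum in every CRS library, and the noCRS sum was Penk alone.

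Oprm1 and Oprd1 were at or near 0, and Oprk1 was detected in 2 CRS libraries. Oprm1, the mu receptor for enkephalins and morphine, lies at chr10:6758506-7038198 on the plus strand. It had 2, 2, 9 and 13 counts in CRS, against 0 in each noCRS library. The CRS values of 0.0604, 0.0624, 0.297 and 0.339 CPM averaged 0.190 ± 0.149 CPM (SD, n = 4), at least 6.64-fold over the limit for the noCRS group. CRS replicates 1 and 2 were below the limit that a 0 allows in a single library. Ipcef1, on the other strand, shares 1.39% of the exon length of Oprm1 and had 334, 1327, 390 and 631 counts in CRS, against 0 in each noCRS library.

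Oprd1, the delta receptor (chr4:132110726-132144486, minus strand), had 0 counts in all 7 libraries. At this depth a count of 0 allows a level of up to 0.0724 to 0.0990 CPM, depending on the library.

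Oprk1, the kappa receptor on which dynorphins act (chr1:5588466-5606131, plus strand), had 104, 0, 0 and 253 counts in CRS, against 0 in each noCRS library. The detected values, in CRS replicates 1 and 4, were 3.14 and 6.59 CPM, and the groups overlapped. The CRS mean was 2.43 ± 3.14 CPM (SD, n = 4), at least 85.2-fold over the noCRS limit and at least 36.7-fold without CRS replicate 4. With no expression filter, edgeR gave an adjusted p of 0.405 for both Oprk1 and Oprm1. Pdyn and Oprk1 were unevenly distributed over the CRS libraries: Pdyn was highest in replicates 2 and 3, where Oprk1 was at 0.

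Oprl1, the nociceptin receptor, lies at chr2:181715016-181720985 on the plus strand and was the one opioid receptor detected in all 7 libraries. It had 1882, 375, 1029 and 1592 counts in CRS, against 3696, 2115 and 2501 in noCRS. These were 56.8, 11.7, 34.0 and 41.5 CPM in CRS, against 89.2, 67.9 and 77.0 CPM in noCRS. Every CRS library was below every noCRS library, with CRS replicate 2 the lowest. The mean was 36.0 ± 18.8 CPM in CRS (SD, n = 4) and 78.0 ± 10.7 CPM in noCRS (SD, n = 3). The log2 fold change was -1.12 (SE 0.45, 95% interval -2.14 to -0.09), with an adjusted p of 0.313 by edgeR, 0.138 by DESeq2 and 0.136 by limma-voom. Across the nociceptin pair, the ligand Pnoc was thus the gene absent from the noCRS counts and its receptor Oprl1 the one with the higher level there.

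Cnr1 encodes the CB1 receptor, the main cannabinoid receptor of the brain, at chr4:33924593-33948831 on the plus strand. Its counts were 2208, 1145, 755 and 2003 in CRS, against 119, 111 and 503 in noCRS. These were 66.7, 35.7, 24.9 and 52.2 CPM in CRS, against 2.87, 3.56 and 15.5 CPM in noCRS. The groups did not overlap, and noCRS replicate 3 stood well above the other noCRS libraries. The mean was 44.9 ± 18.4 CPM in CRS (SD, n = 4) and 7.31 ± 7.10 CPM in noCRS (SD, n = 3), a 6.14-fold difference with a 95% interval of 2.04 to 18.5. The log2 fold change was 2.62 (SE 0.70), with an adjusted p of 0.114 by edgeR, 0.00215 by DESeq2 and 0.0736 by limma-voom. Leaving out noCRS replicate 3 gave a noCRS mean of 3.22 CPM, a log2 fold change of 3.80 and an edgeR adjusted p of 0.0332. Without other single libraries the adjusted p reached up to 0.307.

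Mgll encodes monoacylglycerol lipase, which breaks down the endocannabinoid 2-arachidonoylglycerol, at chr6:88724412-88828360 on the plus strand. Counts were 5814, 2320, 4329 and 7785 in CRS, against 9460, 7710 and 7028 in noCRS. These were 176, 72.4, 143 and 203 CPM in CRS, against 228, 248 and 217 CPM in noCRS. The noCRS libraries lay close together and every CRS library lay below them. The mean was 148 ± 56.3 CPM in CRS (SD, n = 4) and 231 ± 15.7 CPM in noCRS (SD, n = 3). The log2 fold change was -0.64 (SE 0.31, 95% interval -1.34 to 0.07), with an adjusted p of 0.434 by edgeR. Mgll shares 3.29% of its exon length with Gm26588 on the other strand, which had 42.0, 16.3, 28.3 and 46.4 CPM in CRS, against 64.5, 57.1 and 73.3 CPM in noCRS.

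Dagla encodes diacylglycerol lipase alpha, which makes 2-arachidonoylglycerol in neurons, at chr19:10245265-10304877 on the minus strand. Its counts were 80, 56, 6 and 13 in CRS, against 149, 52 and 227 in noCRS. These were 2.42, 1.75, 0.198 and 0.339 CPM in CRS, against 3.59, 1.67 and 6.99 CPM in noCRS. The groups overlapped, since noCRS replicate 2 was below CRS replicates 1 and 2. The mean was 1.17 ± 1.08 CPM in CRS (SD, n = 4) and 4.09 ± 2.70 CPM in noCRS (SD, n = 3), with an adjusted p of 0.635 by edgeR. Leaving out noCRS replicate 3 gave a noCRS mean of 2.63 CPM, and leaving out CRS replicate 1 gave a CRS mean of 0.761 CPM.

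**Figure D2:**
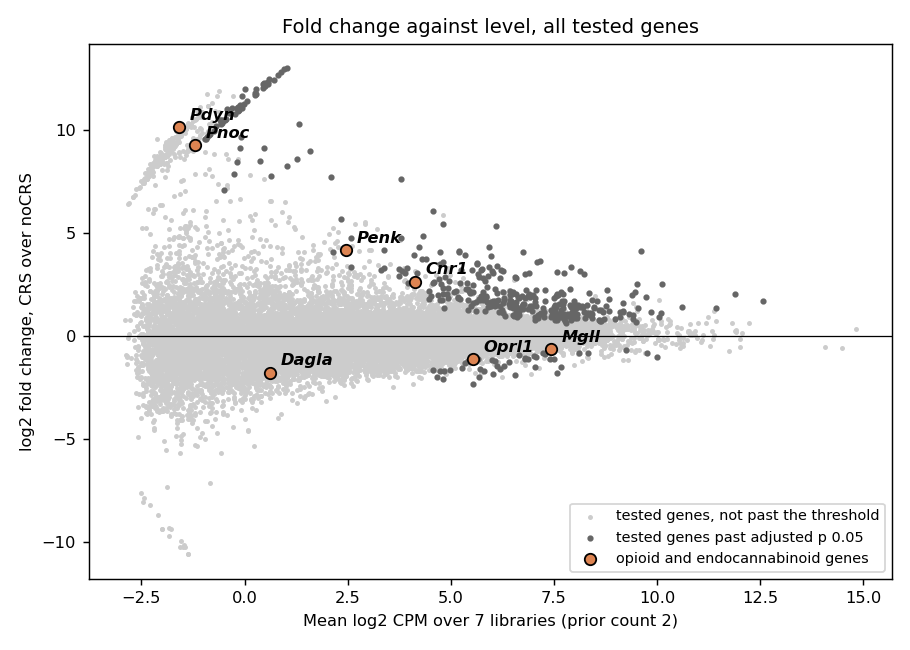
Log2 fold change of CRS over noCRS (vertical axis) against mean log2 CPM over 7 libraries with a prior count of 2 (horizontal axis) for all tested genes (light grey), those past an adjusted p of 0.05 in edgeR (dark grey) and the 7 tested opioid and endocannabinoid genes (orange). Penk and Cnr1 sit at 4.14 and 2.62, while the heights of Pdyn and Pnoc, at 0 in all noCRS libraries, depend on the prior count.

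The median log2 fold change of the 7 tested genes was 2.62, against -0.02 for all tested genes. It is a description: 3 of the 10 genes were not tested, and Pdyn and Pnoc could pass the filter only through their CRS counts.

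**Figure D3:**
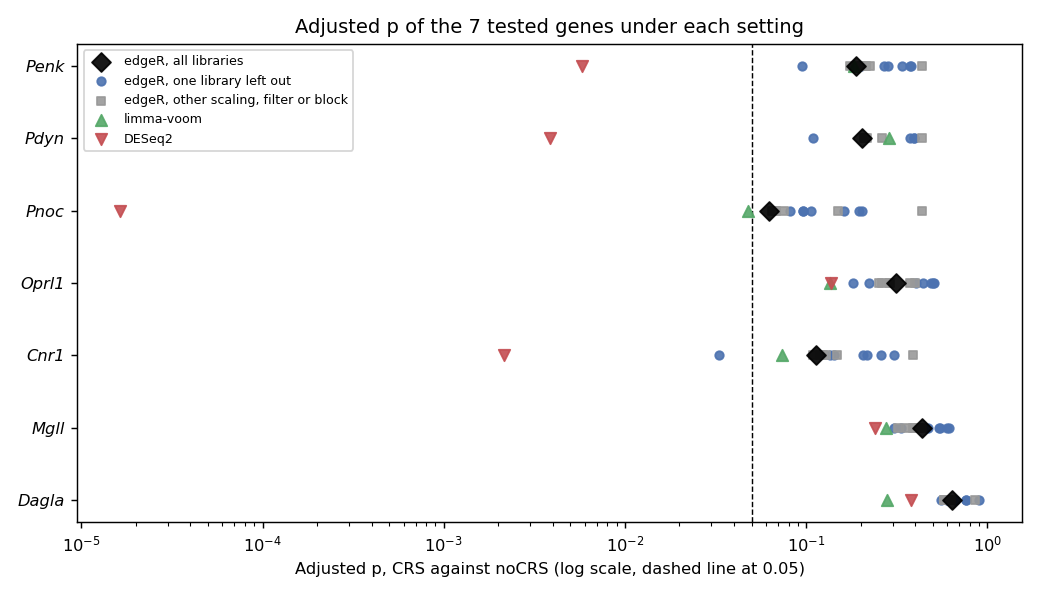
Adjusted p on a log scale for the 7 tested genes with all libraries in edgeR (black diamonds), with each library left out (blue), under other scalings, filters or the replicate block (grey), and by limma-voom (green) and DESeq2 (red), with a dashed line at 0.05. DESeq2 placed Penk, Pdyn, Pnoc and Cnr1 left of the line, and no edgeR setting did so except for Cnr1 at 0.0332 without noCRS replicate 3. Limma-voom placed Pnoc just left of it, at 0.0478.

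Levels of different genes were compared per kilobase of exon (RPKM, from TMM-normalised CPM). In CRS the order was Mgll at 29.2 ± 11.1, Penk at 17.6 ± 11.2, Oprl1 at 9.59 ± 5.01 and Cnr1 at 6.96 ± 2.85 RPKM (SD, n = 4). Below these came Pdyn at 1.42 ± 1.73, Pnoc at 1.02 ± 0.607, Oprk1 at 0.266 ± 0.343, Dagla at 0.204 ± 0.188 and Oprm1 at 0.0236 ± 0.0186 RPKM. Means ± SD of neighbours in this order overlapped everywhere except between Cnr1 and Pdyn, and Oprd1 was at 0. In noCRS the order was Mgll at 45.5 ± 3.09, Oprl1 at 20.8 ± 2.84, Cnr1 at 1.13 ± 1.10, Penk at 0.995 ± 0.863 and Dagla at 0.711 ± 0.469 RPKM (SD, n = 3). There Mgll, Oprl1 and Cnr1 were separated by more than their SD, while Cnr1, Penk and Dagla were not. Pdyn, Pnoc, Oprm1, Oprd1 and Oprk1 were at 0 in noCRS. Summed in CPM over the 10 genes, the level was 335, 152, 224 and 361 in CRS, against 326, 323 and 316 in noCRS.

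Summed neuronal marker levels were lower in noCRS than in CRS, though not for every marker. As background for the counts below, edgeR called 2.07% of all tested genes higher in CRS and 0.23% lower. An unadjusted p below 0.05 was reached by 13.6%. Over all genes with an adjusted p, DESeq2 called 9.14% and limma-voom 3.58%. The summed level of 12 pan-neuronal markers was 3470 to 4650 CPM in CRS, against 507 to 603 CPM in noCRS, and 6 of the 12 rose in CRS by edgeR (4 to 6 when a library was left out). Among them Snap25, a vesicle fusion protein, averaged 2750 ± 611 CPM in CRS and 158 ± 57.7 CPM in noCRS (SD, n = 4 and 3), the largest share of the sum in CRS. Map2, a dendritic protein of the same list, averaged 175 ± 53.7 CPM in CRS and 186 ± 19.0 CPM in noCRS, with overlap. Elavl4, a neuronal RNA-binding protein, averaged 186 ± 39.0 CPM in CRS and 110 ± 1.95 CPM in noCRS (adjusted p 0.103 by edgeR). The summed level of 10 cortical excitatory markers was 504 to 759 CPM in CRS, against 20.9 to 39.9 CPM in noCRS, with 3 of 10 past the threshold and higher. Emx1, of that list, was at 0 in noCRS and in CRS replicate 1. Nrgn, a calmodulin-binding protein of excitatory neurons, averaged 201 ± 38.9 CPM in CRS and 13.6 ± 1.36 CPM in noCRS (SD, n = 4 and 3). Inhibitory markers summed to 357 to 991 CPM in CRS, with replicate 2 the highest, against 356 to 420 CPM in noCRS. Of the 12 tested, 2 rose and 1 fell, with 0 to 2 and 0 to 1 when a library was left out, and none was called without noCRS replicate 1 or without noCRS replicate 2. Slc32a1 and Lhx6, of the same list, were at 0 in noCRS and also in part of the CRS libraries. In CRS libraries 1 to 4, Slc32a1 had 0, 0, 4 and 4 counts, and Lhx6 had 0, 462, 0 and 0. Of 5 tested striatal markers none passed in edgeR, although 4 had an unadjusted p below 0.05. DESeq2 called 2 of them and limma-voom called 0, and edgeR called 1 without CRS replicate 2. Their sums were 118 to 260 CPM in CRS, against 88.6 to 154 CPM in noCRS. Of the 4 with an unadjusted p below 0.05, 3 were higher in CRS and 1, Pde10a, was lower (11.7 ± 2.99 CPM in CRS and 28.3 ± 15.1 CPM in noCRS; SD, n = 4 and 3). The dopamine receptor Drd1 had 755, 0, 99 and 235 counts in CRS, against 0 in each noCRS library. Drd1 could therefore be tested only through its CRS counts and could only be higher there, which limits the striatal counts that include it. Drd2 had 1 count in CRS replicate 1 and Adora2a had 52 counts in CRS replicate 4, and both were at 0 in every other library.

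Oligodendrocyte precursor markers summed to 1750 to 2290 CPM in CRS, against 3020 to 3470 CPM in noCRS, and 6 of 10 fell in CRS. With any single library left out, 0 to 4 of them fell. With all libraries, 0.23% of all tested genes fell. Oligodendrocyte markers, the most abundant list, summed to 27000 to 53100 CPM in CRS, against 32600 to 37700 CPM in noCRS, in libraries labelled as neurons. Astrocyte markers summed to 6470 to 13000 CPM in CRS, against 10900 to 14200 CPM in noCRS. Microglial markers summed to 84.4 to 126 CPM in CRS, against 91.9 to 135 CPM in noCRS. Endothelial markers summed to 50.5 to 247 CPM in CRS, against 57.6 to 217 CPM in noCRS. Mural and fibroblast markers summed to 152 to 563 CPM in CRS, against 61.5 to 165 CPM in noCRS. Blood markers summed to 0 to 16.2 CPM in CRS, against 0 in noCRS. None of the tested genes of the last 6 of these lists passed the threshold in edgeR with all libraries. At an unadjusted p below 0.05 these lists held 4 astrocyte, 1 mural and 1 blood gene, against 13.6% of all tested genes. The blood gene, at 0 in all noCRS libraries, could pass the filter only through its CRS counts and could only be higher in CRS. DESeq2 called 2 astrocyte, 1 microglial, 1 mural and 1 blood gene, and limma-voom called 0 in all 6 lists. Over all genes with an adjusted p, DESeq2 called 9.14% and limma-voom 3.58%. Without noCRS replicate 1, edgeR called 1 mural or fibroblast gene.

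**Figure D4:**
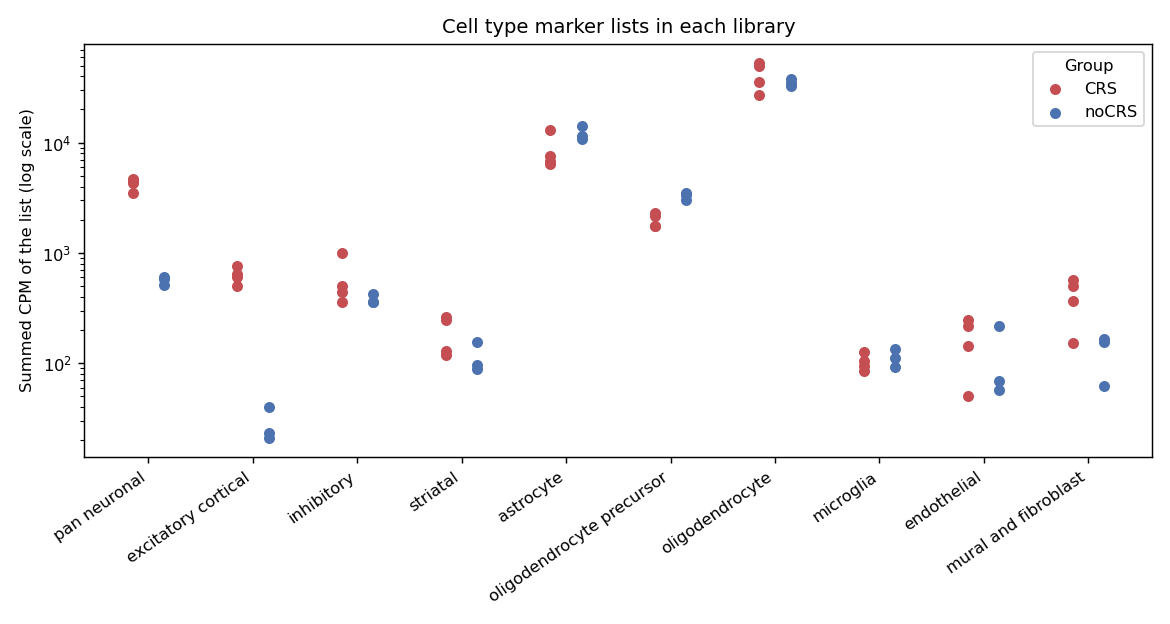
Summed TMM-normalised CPM (log scale) of 10 marker lists in each CRS library (red, left) and each noCRS library (blue, right), with 1 point per library; blood markers, at 0 in noCRS, are not drawn. The groups separate upward in CRS for the pan-neuronal and excitatory lists and downward for oligodendrocyte precursor markers, and overlap for inhibitory, oligodendrocyte and microglial markers.

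Because these are bulk samples, fewer cells of a type and less RNA per cell cannot be told apart. As a ratio chosen after the values were seen, Cnr1 made up 1.53%, 0.769%, 0.719% and 1.15% of the pan-neuronal sum in CRS, against 0.476%, 0.703% and 2.70% in noCRS. Penk made up 0.608%, 0.374%, 0.456% and 1.21% of that sum in CRS, against 0.420%, 0.462% and 0% in noCRS. On this scale the groups overlapped for both genes. The Cnr1 mean was 1.04% in CRS and 1.29% in noCRS, the reverse of its order in CPM, and Penk averaged 0.663% in CRS and 0.294% in noCRS. Relative to the inhibitory sum, Penk averaged 5.96% in CRS and 0.421% in noCRS, without overlap, and Cnr1 averaged 9.61% in CRS and 2.01% in noCRS, with overlap. Pnoc averaged 0.0505% of the pan-neuronal sum in CRS and 0% in noCRS, where it had no counts to divide. Oprl1 averaged 0.862% of the pan-neuronal sum in CRS and 13.9% in noCRS, and Mgll 3.54% in CRS and 41.4% in noCRS, both without overlap. Both genes were already lower in every CRS library and the sum was higher there. The ratio could therefore only widen their gap. Against the excitatory sum the order of the means was reversed for Penk as well as for Cnr1. Cnr1 averaged 7.02% in CRS and 30.3% in noCRS, and Penk averaged 4.35% in CRS and 5.85% in noCRS, both with overlap. The part of the neuronal and glial marker levels in the differences of these genes was not tested.

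Among 15 further genes of opioid precursors, their processing and breakdown, 14 were tested, 1 rose, none fell and 3 had an unadjusted p below 0.05. Of all tested genes, 2.07% rose, 0.23% fell and 13.6% had an unadjusted p below 0.05. The gene that rose in this list was Pcsk2, a convertase that cuts precursors at paired basic residues such as those before the cores printed above. Pcsk2 had 199, 145, 148 and 213 CPM in CRS, against 62.4, 45.2 and 41.7 CPM in noCRS, with every CRS library higher. The mean was 176 ± 34.9 CPM in CRS (SD, n = 4) and 49.7 ± 11.1 CPM in noCRS (SD, n = 3), with a log2 fold change of 1.82 (SE 0.24) and an adjusted p of 0.00871 by edgeR. Without noCRS replicate 2 its adjusted p was 0.0501 and the list had no call. DESeq2 and limma-voom each called 2 genes of the list, against 9.14% and 3.58% of all genes with an adjusted p in each. The list's median log2 fold change was 0.08, against -0.02 for all tested genes.

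Among 18 further endocannabinoid genes, 14 were tested, 2 rose, none fell and 3 had an unadjusted p below 0.05. The shares of all tested genes were 2.07% rising, 0.23% falling and 13.6% with an unadjusted p below 0.05. Cnr2, Gpr55, Trpv1 and Gpr18, receptors for endocannabinoids and related lipids, were at 0 in all 7 libraries. Ptgs2, cyclooxygenase-2, which also oxidises endocannabinoids, had 8.97, 25.6, 16.1 and 14.0 CPM in CRS, against 0 in each noCRS library. Its CRS mean of 16.2 ± 6.94 CPM (SD, n = 4) was at least 566-fold over the noCRS limit, with an adjusted p of 0.00789 by edgeR that stayed between 0.0174 and 0.0350 when a library was left out. Ptgs2, at 0 in all noCRS libraries, could pass the filter only through its CRS counts. It could differ only by being higher in CRS, which limits every count of this list that includes it. Fabp3, a fatty acid binding protein, had 76.1, 54.7, 43.3 and 53.5 CPM in CRS, against 7.82 to 15.2 CPM in the 3 noCRS libraries. Its log2 fold change was 2.29 (SE 0.35), with an adjusted p of 0.0161 by edgeR, but 0.0763 without noCRS replicate 2 and 0.0527 without CRS replicate 4, each of which left 1 call in the list. Fabp3 shares 19.56% of its exon length with genes on the other strand and is uncertain for that reason. DESeq2 and limma-voom each called 2 genes, against 9.14% and 3.58% of all genes with an adjusted p in each. The list's median log2 fold change was 0.23.

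Among 29 genes of the Gi/o pathway downstream of both receptor families, 27 were tested, 3 rose and none fell. An unadjusted p below 0.05 was reached by 7, of which 5 were higher in CRS and 2, Grk3 and Arrb1, were lower. By edgeR, 2.07% of all tested genes rose and 0.23% fell. An unadjusted p below 0.05 was reached by 13.6% of all tested genes, 9.67% higher in CRS and 3.91% lower. Rgs4, which speeds the shut-off of Gi/o proteins, had 422, 368, 352 and 486 CPM in CRS, against 20.9, 32.2 and 49.3 CPM in noCRS. Its mean was 407 ± 60.6 CPM in CRS (SD, n = 4) and 34.1 ± 14.3 CPM in noCRS (SD, n = 3), an 11.9-fold difference. The adjusted p was 0.00226 by edgeR and between 0.00568 and 0.0168 when a library was left out. Gng2, a G protein gamma subunit, had 59.4, 96.2, 70.2 and 81.3 CPM in CRS, against 24.1, 18.7 and 32.6 CPM in noCRS. Its adjusted p was 0.0280 by edgeR, and removal of noCRS replicate 1, noCRS replicate 2, CRS replicate 2, CRS replicate 3 or CRS replicate 4 ended the call (up to 0.117). It shares 20.43% of its exon length with Gm48283. Gnai1, a Gi alpha subunit, had 359, 388, 327 and 365 CPM in CRS, against 227, 135 and 121 CPM in noCRS. Its adjusted p was 0.0453 by edgeR, and the call was lost without any single library other than noCRS replicate 1 (up to 0.182). Without CRS replicate 2, 3 or 4, 1 gene of the list was called. DESeq2 called 5 and limma-voom 3, against 9.14% and 3.58% of all genes with an adjusted p in each. The list's median log2 fold change was 0.48. The summed neuronal marker levels given above moved in the same direction as the genes called in all 3 lists, and their part in these calls was not tested.

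**Figure D5:**
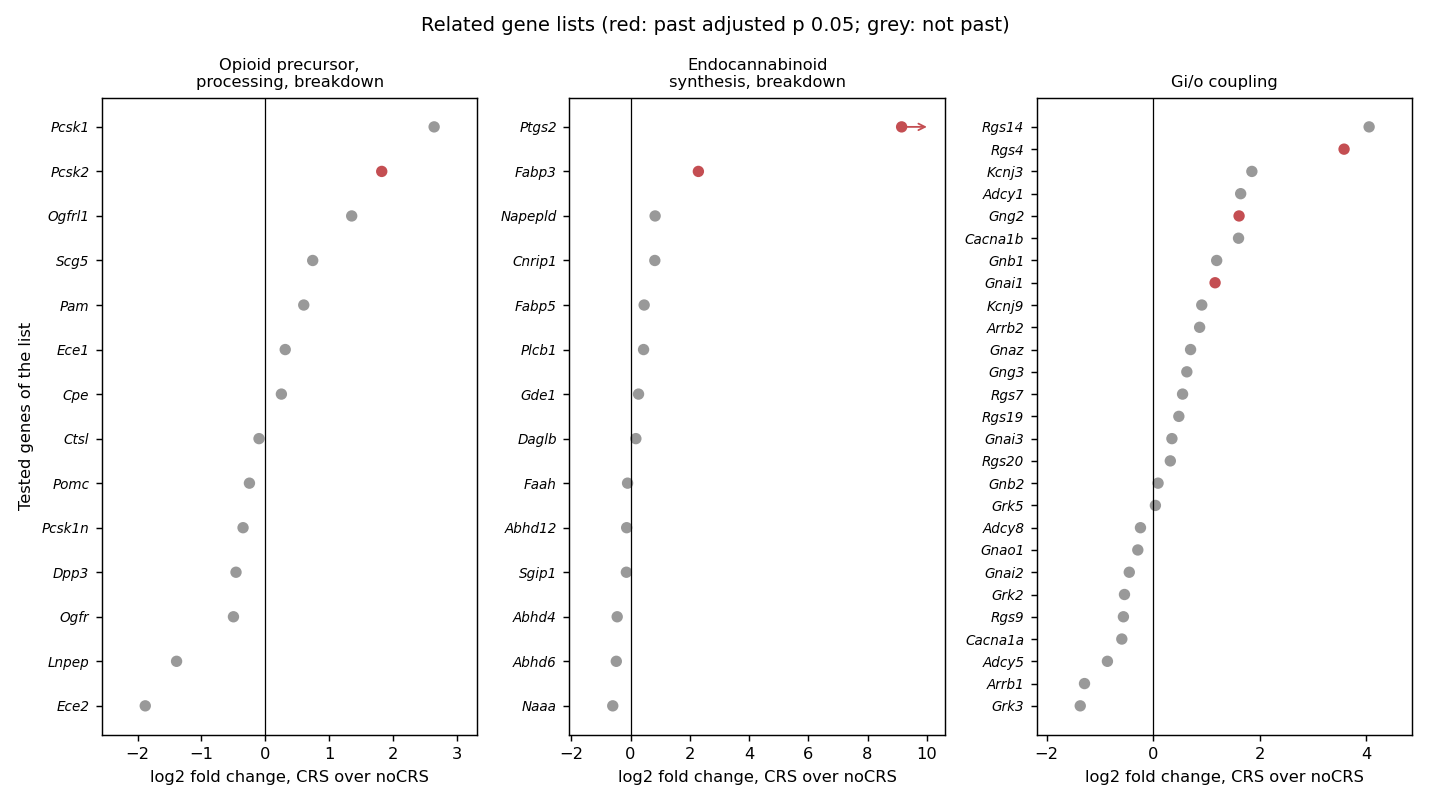
Log2 fold change of CRS over noCRS (horizontal axes) for the tested genes (vertical axes) of the opioid precursor, endocannabinoid and Gi/o lists, with genes past an adjusted p of 0.05 in edgeR in red and the others in grey. Pcsk2 at 1.82, Fabp3 at 2.29, Rgs4 at 3.58, Gng2 at 1.61 and Gnai1 at 1.16 are red, and Ptgs2 is drawn at its lower bound with an arrow.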

How the data were processed

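RNA-seq of 7 libraries was analysed. The authors deposited raw counts per gene and a gene length column in bases. Per the labels' protocols, RNA extraction used RNeasy Micro Kit and library preparation used a transposase kit (TruePrep V2), which leaves strand unmarked. The submitters' processing notes name featureCounts, HISAT2, HISAT, DESeq2 and FastQC and the build GRCm38. The aligner behind the counts is unsettled, since column names end as those of another aligner. No versions are given.

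Here the deposited counts entered edgeR 4.0.16 under R 4.3.3 (TMM, default expression filter, quasi-likelihood test, no covariate), with Benjamini-Hochberg adjustment over 17833 genes and a threshold of 0.05. The biological coefficient of variation was 0.919. The script was tested on simulated data. The alternatives comprised limma-voom (limma 3.58.1, quality weights), DESeq2 1.42.0, 3 other scalings, 2 other filters, a threshold of 0.1, each library left out in turn and the replicate number as a block. No 2 libraries were duplicates (chi-square per gene at least 93.6).

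The members and gene lists were chosen with earlier results of these data known. The rule for named genes took all 10 members, called genes of the 3 related lists (up to 6 by smallest p, otherwise the 3 of smallest unadjusted p) and the 2 most abundant genes of each marker list. It also asked for the genes most alike to each called member, of which there were none. Any gene named beyond this rule, such as Map2, Elavl4, Pde10a and Drd1, was picked with its values in view. Counts and sums include a few named genes whose own results are not reported here. Genes that share exon sequence were found from the deposited exon coordinates. Promoters are from RefSeq (GRCm38.p6) and coding sequences from GENCODE M21 transcripts.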

Additional observations from a re-analysis of the deposited data

Results flagged for a closer look

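Of 38 named genes screened in the 4 CRS libraries, 4 had a library whose gap to its nearest neighbour, as a share of the group's range, was above Dixon's 95% critical value. Chance alone gives about 1 in 20, and none of the 10 opioid and endocannabinoid genes was among them. The 2 described here were both high in CRS replicate 4: P2ry12, a microglial receptor (gap share 0.957), and Hba-a1, an alpha globin (0.996). P2ry12 had 0.574, 0.0936, 0 and 13.4 CPM in CRS, against 0, 5.94 and 13.6 CPM in noCRS. Hba-a1 had 0, 0.0312, 0.0330 and 7.90 CPM in CRS, against 0 in each noCRS library. Penk and Oprk1 were also highest in CRS replicate 4, and without it their CRS means were 19.9 and 1.05 CPM.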

How the results depend on the processing

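All 108 values of the tested members under the alternatives kept their direction, and 7 of them, in 4 members, passed the threshold, including Pnoc at a threshold of 0.1. The direction of part of these values was fixed in advance. The threshold of 0.1 reuses the main fit, and Pdyn and Pnoc, at 0 in all noCRS libraries, could not turn. The count of members called, 0 with all libraries in edgeR, was 4 with DESeq2, 1 with limma-voom, 1 at an adjusted p of 0.1, and 0 to 1 when a library was left out. The count in the opioid precursor list, 1, was 2 with DESeq2, 2 with limma-voom, 2 at 0.1, and 0 to 1 when a library was left out. The endocannabinoid count, 2, was 1 to 2, and the Gi/o count, 3, was 1 to 2, when a library was left out, and the Gi/o list had 5 calls with DESeq2. The members' median log2 fold change of 2.62 was 4.13 with no expression filter (9 members), 0.97 with at least 1 CPM in 3 libraries (6 members) and 0.83 to 3.68 when a library was left out, settings that can change which members are included. With the replicate number as a block, the 3 list counts were 0, 0 and 0, and no member was called (adjusted p of 0.436 for Penk, Pdyn and Pnoc, 0.388 for Cnr1 and 0.373 for Oprl1). In that fit CRS replicate 4, whose number no noCRS library shares, adds nothing to the contrast, and few degrees of freedom remain. The loss of calls therefore cannot be read as an effect of pairing. Same-numbered libraries correlated at 0.0153, -0.00319 and 0.0228 in their deviations from group means, and differently numbered libraries at -0.0645 to 0.0503. Not every library correlated best with its own number. The labels do not say what the numbers mean. Whether they pair the samples cannot be decided from values this near 0 in so few libraries. Leaving out a library reversed the direction of 2 uncalled markers: P2ry12 (log2 fold changes of -4.87 to 0.25, with the sign turned without noCRS replicate 3) and Slco1a4 (-0.34 to 1.43, turned without noCRS replicate 2 or 3 or CRS replicate 4). Of the other comparisons, 475 kept their direction and side of the threshold, 11 crossed to significance and 46 lost it. The cause of these shifts was not tested. Oprm1 and Oprd1 had too few counts to test, while Oprk1 was not tested because only 2 libraries held counts of it. The part of sequencing depth in the low counts was not tested.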

Other observations

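The following values were chosen after they were seen, and none of these genes passed the threshold. Pcsk1, the other main convertase of opioid precursors, had 29.6, 9.61, 23.7 and 21.5 CPM in CRS, against 0, 6.55 and 3.60 CPM in noCRS, with an adjusted p of 0.490 by edgeR. Rgs14, another regulator of Gi/o proteins, had 26.2, 11.5, 13.2 and 12.8 CPM in CRS, against 0, 2.89 and 0 CPM in noCRS (adjusted p 0.405 by edgeR). Cnrip1, which encodes a protein that binds the tail of the CB1 receptor, had 127, 170, 122 and 127 CPM in CRS, against 91.6, 51.0 and 88.8 CPM in noCRS (adjusted p 0.168 by edgeR). Grk3, a kinase that desensitises opioid receptors, had 16.8, 8.52, 14.9 and 33.7 CPM in CRS, against 70.9, 37.1 and 34.9 CPM in noCRS, so that every CRS library lay below every noCRS library (adjusted p 0.237 by edgeR). Arrb1, an arrestin that binds phosphorylated receptors, had 12.6, 8.46, 5.35 and 11.1 CPM in CRS, against 12.6, 23.0 and 33.4 CPM in noCRS (adjusted p 0.296 by edgeR).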
